A study of Mus musculus with 5 samples.

Results

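Hypertrophic chondrocytes are a late stage of the cartilage cell's life. A set of 9 genes that mark or steer that stage was followed in cartilage of the mandibular condyle, where the jaw joins the skull. The genes were Col10a1, Mgp, Pth1r, Mef2c, Mef2d, Runx3, Panx3, Slc1a3 and Scin. They were taken as a named list, by the rows of the deposited table whose platform annotation gives exactly 1 of these symbols, and all 9 were found among the 19938 genes tested. Mef2d had 2 such rows, of which the row with the higher mean over the 5 arrays was used. Total RNA of 2 mice labelled DDR-1-KO and 3 wild-type mice, all of strain 129/Sv, had been hybridised to Affymetrix mouse gene 1.0 ST arrays, 1 mouse to an array. DDR-1 is discoidin domain receptor 1, a receptor tyrosine kinase that binds collagen. Each mouse keeps its label's number, which gives knockout 2 and 5 beside wild type 3, 4 and 6. The labels give no age, sex or treatment and do not say how the allele was made.

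In a growing joint, chondrocytes first divide, then stop, swell and replace their collagen II matrix with collagen X, after which the matrix mineralises and is invaded by vessels and bone. Parathyroid hormone-related protein acts through the receptor Pth1r to hold cells back from this step, in a feedback loop with Indian hedgehog. Transcription factors of the Runx and Mef2 families drive it, and the condyle keeps a hypertrophic zone beneath its proliferating cells.

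None of the 9 genes differed between knockout and wild type beyond the error of the comparison. The count of members past limma's adjusted p of 0.05 was 0 in either direction, 0 members had an unadjusted p under 0.05, and the lowest adjusted p among the members was 0.399, for Slc1a3. Over all genes tested, 3.73% passed, 1.55% as higher and 2.18% as lower in knockout, and 18.2% had an unadjusted p under 0.05. The values of the 2 genotypes overlapped or met in every member, while they did not overlap in 31.5% of all genes. In Pth1r, Mef2c, Mef2d, Runx3, Slc1a3 and Panx3 a knockout array had exactly the value of a wild-type array. Separate values were not possible in these genes, so no conclusion is drawn from the 2 shares. By sign, 3 members were higher and 6 lower in knockout, with a median change of -0.013 on the log2 scale beside -0.0083 for all genes. The median size of the change, without its sign, was 0.043 in the members and 0.20 in all genes.

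All levels are log2 signals made by the robust multi-array average (RMA), and a change is the knockout mean less the wild-type mean, so that a change of 1 is 2-fold. In 8 of the 9 members at least 2 arrays had exactly the same value: 4 of the 5 arrays had the same value in 5 members, and the wild-type values were identical in 3. RMA summarises the probes of a transcript by median polish, which can return such ties, but where they came from was not tested. Identical values do not show equal expression, and in such genes the standard error does not measure the spread between mice. Of all genes tested, 39.1% had identical wild-type values. The other counts of identical arrays have no such share beside them here, so they are not read as a trait of the members. The spread behind each p-value mixes that of the mice with that of their arrays. In whole cartilage, fewer hypertrophic cells and less RNA in each of them cannot be told apart.

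The arrays did not lie equally close to each other. Over all genes, the correlation between 2 wild-type arrays was 0.984 to 0.993, that of knockout 5 to a wild-type array 0.903 to 0.927, and that of knockout 2 to any other array 0.803 to 0.837. The gene values had a standard deviation of 0.802 on the array of knockout 2, 0.906 on that of knockout 5 and 0.991 to 1.02 on the wild-type arrays. By the array file names, knockout 2 and wild type 3 formed run 1 and the other 3 arrays run 2. Ddr1 itself was at 5.96 and 5.80 in knockout and at 6.02 on every wild-type array, and its change was -0.14 (SE 0.0581, limma's adjusted p = 0.377). Where its probes lie was not analysed here, so Ddr1 gives no check of the labels.

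Col10a1 encodes the chain of collagen X, the matrix collagen that defines the hypertrophic zone. Knockout 2 had a signal of 5.34 and knockout 5 one of 6.03, and Col10a1 was at 5.14, 5.44 and 5.44 in wild types 3, 4 and 6. Knockout 5 was above every wild-type array, and knockout 2 lay between wild type 3 and the other wild types. The wild-type signal of Col10a1 lay below the 95th percentile of olfactory and vomeronasal receptor genes, so it was not shown to be above background and its fold is approximate. The mean was 5.68 ± 0.492 (SD, n = 2) in knockout and 5.34 ± 0.173 (SD, n = 3) in wild type, a change of 0.34 (SE 0.263, adjusted p = 0.416), or 1.27-fold. The 95% interval of the change ran from -0.41 to 1.10, which is 0.752-fold to 2.15-fold. Col10a1 had the widest range of the 9 members over the arrays, 0.89, and the gap between its 2 knockout mice was 0.70. The change was 0.20 within run 1 and 0.59 within run 2. It was 0.69 without knockout 2 and -0.003 without knockout 5.

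Mgp, matrix Gla protein, is a small secreted inhibitor of mineralisation that cartilage and vessel walls make. Its signal was 6.16 and 6.04 in knockout 2 and 5, against 5.88, 5.63 and 6.10 in wild types 3, 4 and 6. Wild type 6 lay between the knockout mice, and the other wild types lay below both. The change was 0.23 (SE 0.166, adjusted p = 0.403, interval -0.25 to 0.71), with 0.28 within run 1 and 0.17 within run 2. Mgp was the member with no value repeated between arrays, and its wild-type range of 0.47 was wider than the change. Of the smooth muscle and endothelial markers, other known sources of Mgp, 0 of 10 passed, 2 were higher and 7 lower (4 and 6 after cyclic loess), and their mean log2 signal was 4.91 and 5.19 in knockout and 5.20 to 5.26 in wild type. The part of these cells in the Mgp signal was not tested.

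**Figure D1:**
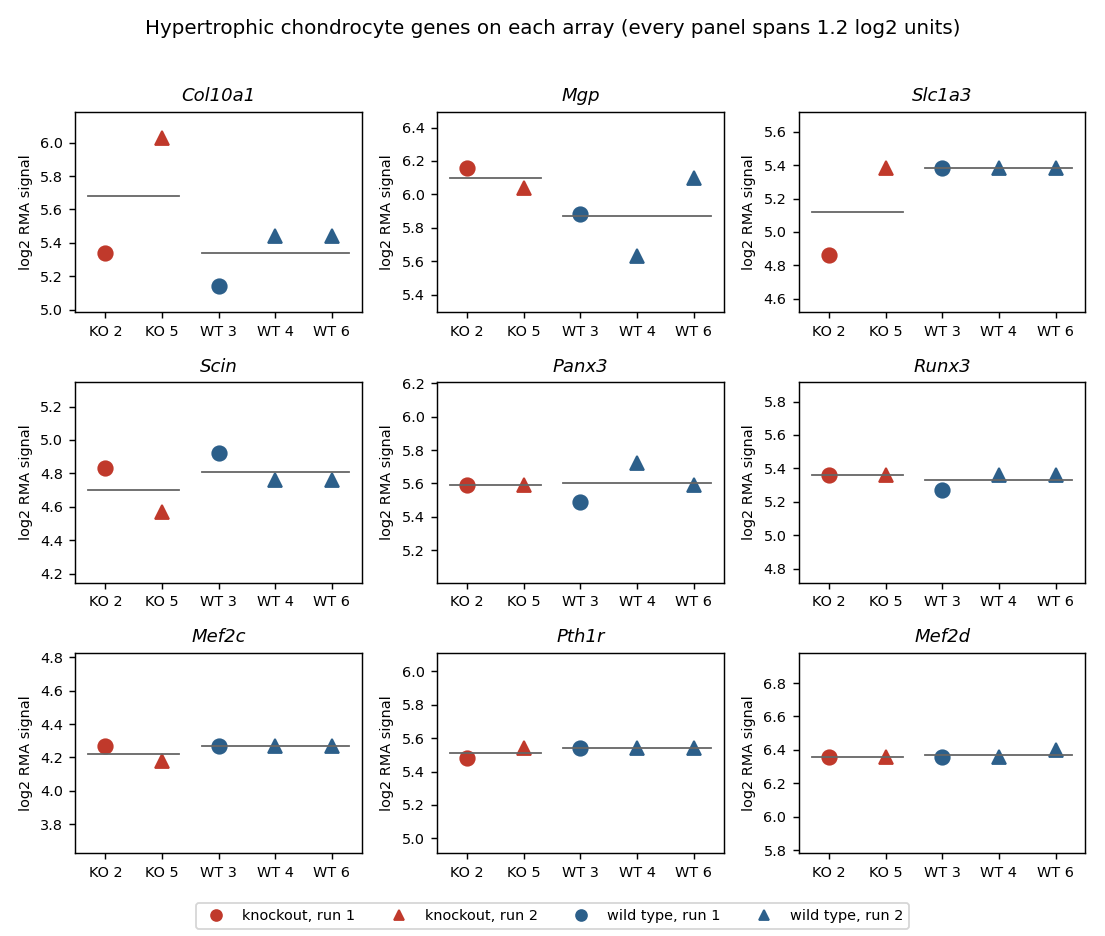
Log2 RMA signal (vertical axis) of the 9 hypertrophic chondrocyte genes on each of the 5 arrays (horizontal axis; KO, knockout; WT, wild type), with the group mean as a line, circles for array run 1 and triangles for run 2. Col10a1 in knockout 5 (6.03) and Slc1a3 in knockout 2 (4.86) stand off from the other arrays, while Mef2d spans only 0.04 over all 5.

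Pth1r encodes the receptor for parathyroid hormone and parathyroid hormone-related protein. It was at 5.48 in knockout 2 and at 5.54 in the other 4 arrays. The change was -0.029 (SE 0.0252, adjusted p = 0.46), with an interval from -0.10 to 0.043. Only knockout 2 differed, and by 0.059.

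Mef2c and Mef2d are MADS-box factors that switch on Col10a1 and Runx2 in developing cartilage and are held back by the deacetylase Hdac4. Mef2c was at 4.27 in knockout 2 and all wild-type mice and at 4.18 in knockout 5, a change of -0.043 (SE 0.0331, adjusted p = 0.417). Mef2d was at 6.36 on 4 arrays and at 6.40 in wild type 6, a change of -0.013 (SE 0.0218, adjusted p = 0.703). The other row of Mef2d had 4.50 on all 5 arrays. For both factors the arrays differed by less than 0.1 in all.

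Runx3 shares the DNA-binding Runt domain with Runx2 and acts beside it in chondrocyte maturation. Its value was 5.36 on both knockout arrays and in wild types 4 and 6, and 5.27 in wild type 3. The change of 0.031 (SE 0.0398, adjusted p = 0.613) thus came from a single wild-type array. Runx3 and Mef2c are also expressed in lymphocytes, whose markers were higher in knockout for 7 of 8 measured genes and lower for 0, with 0 past the threshold. Of all genes, 42.6% were higher. The mean log2 signal of these lymphocyte markers was 5.27 and 5.21 in knockout and 4.85 to 4.99 in wild type. Gene by gene, the genotypes did not overlap in 3 of the 8, beside 31.5% of all genes. These markers are dim, at a median wild-type percentile of 34.5, and dim genes tended to lie above 0. The part of lymphocytes in the Runx3 and Mef2c signals was not tested.

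Panx3 encodes a channel protein of the pannexin family that is abundant in prehypertrophic and hypertrophic chondrocytes and osteoblasts. Both knockout mice and wild type 6 were at 5.59, wild type 3 at 5.49 and wild type 4 at 5.72. The wild-type mice lay on both sides of the knockout value, and the change was -0.011 (SE 0.0781, adjusted p = 0.981). It was 0.097 within run 1 and -0.065 within run 2, the 1 member whose sign differed between the runs.

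Slc1a3, a glutamate transporter known from glia, had 4.86 in knockout 2 and 5.38 on each other array. Knockout 5 met the wild-type value and knockout 2 lay 0.52 below it. The change was -0.26 (SE 0.177, adjusted p = 0.399, interval -0.77 to 0.25), and it was 0 without knockout 2. Of the Schwann and glial markers, 4 of 7 were measured, 2 higher and 2 lower (all 4 higher after cyclic loess), with 0 past the threshold, and their mean log2 signal was 5.75 and 5.94 in knockout 2 and 5, against 5.79 to 5.82 in wild type. Their part in the Slc1a3 signal was not tested.

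Scin encodes scinderin, also called adseverin, a calcium-dependent protein that severs actin filaments. It was at 4.83 and 4.57 in knockout 2 and 5, and at 4.92, 4.76 and 4.76 in wild types 3, 4 and 6. Knockout 5 was the lowest and wild type 3 the highest, with knockout 2 among the wild types. The change was -0.12 (SE 0.108, adjusted p = 0.5), with -0.095 within run 1 and -0.19 within run 2.

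Across the members, the sign was the same in both runs for 3 genes, Col10a1, Mgp and Scin, opposite for Panx3, and the change was 0 in 1 of the runs for the other 5. A two-sided exact permutation test over the 5 arrays cannot go below p = 0.1 in this design. It gave 0.3 for Mgp, 0.4 for Col10a1, Pth1r, Mef2c and Slc1a3, 0.6 for Scin and 1 for Mef2d and Panx3. In Runx3, as in Mef2d, only a single wild-type array differed from the others. No other grouping of the arrays gives Runx3 a smaller change, so this test cannot set its change apart. At the deposited scaling, the 95% intervals stayed within 0.849-fold to 1.16-fold for Panx3. They reached 0.587-fold for Slc1a3, 1.63-fold for Mgp and 2.15-fold for Col10a1. These intervals do not bound the change under another scaling. After cyclic loess the log2 change of Mef2d was 0.20, outside its interval of -0.076 to 0.05. That of Pth1r was 0.094, outside its interval of -0.10 to 0.043. In members with repeated values these intervals rest in part on the identical numbers.

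**Figure D2:**
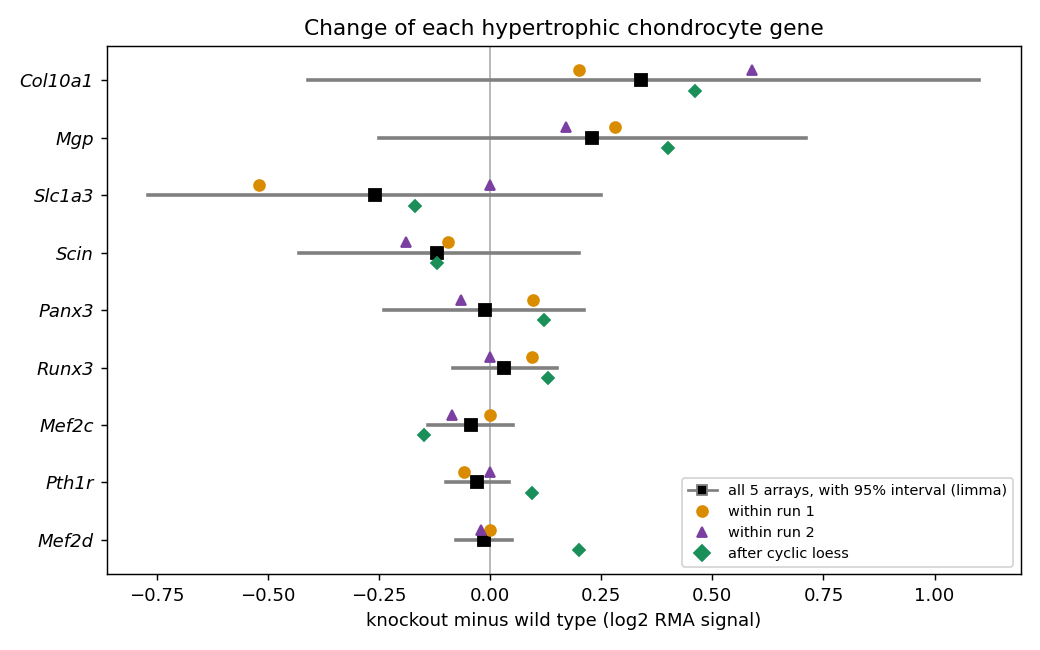
Knockout minus wild type (horizontal axis, log2 RMA signal) for each member (vertical axis): black squares with grey bars are limma's change and its 95% interval over all 5 arrays, circles and triangles the change within run 1 and run 2, and diamonds the change after cyclic loess. All 9 intervals cross 0, and those of Col10a1 (-0.41 to 1.10) and Slc1a3 (-0.77 to 0.25) are the widest.

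Cyclic loess, another scaling between the arrays, moved 5 of the 9 members by more than the size of their change. After it, 6 members were higher and 3 lower, with a median of 0.12 beside 0.013 for all genes, and 0 passed. Mef2d then stood at 0.20 (adjusted p = 0.277), Panx3 at 0.12 (adjusted p = 0.479) and Pth1r at 0.094 (adjusted p = 0.388), each with its sign turned. Col10a1 was at 0.46 (adjusted p = 0.313) and Mgp at 0.40 (adjusted p = 0.313), higher as before, and Mef2c at -0.15 (adjusted p = 0.218), lower as before, though at 0.029 with arrays centred on their median. No direction is therefore given for Mef2c, Mef2d, Panx3 or Pth1r. Nor is one given for Col10a1 and Scin, which stood at -0.003 and 0.013 without knockout 5. Slc1a3 was at 0 without knockout 2 and Runx3 at 0 without wild type 3, so they too are given none. Mgp stayed higher in every setting, though not beyond its error.

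**Figure D3:**
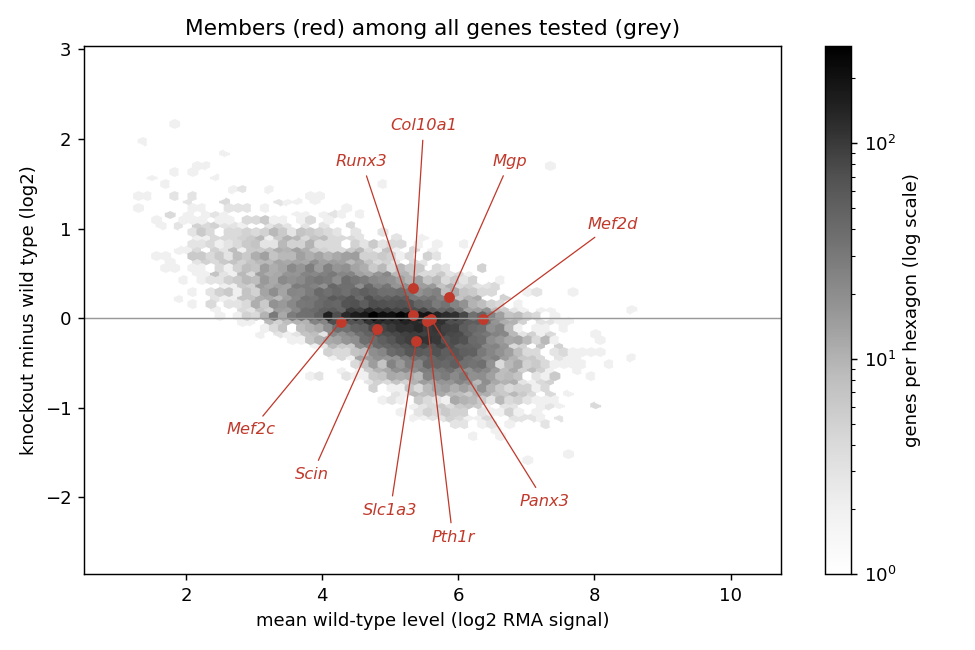
Change (vertical axis, knockout minus wild type, log2) against the mean wild-type level (horizontal axis, log2 RMA signal) for the 19938 genes tested, shaded by the number of genes per hexagon on a log scale, with the 9 members in red. Dim genes tend to lie above 0 and bright genes below it, and the members sit between -0.26 (Slc1a3) and 0.34 (Col10a1).

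How far the members stood above background was read from their place among other rows, since no detection call was used here and signals of different probe sets are not amounts. The 1194 olfactory and vomeronasal receptor genes, whose transcripts belong to sensory neurons, had a median wild-type signal of 3.93 and a 95th percentile of 5.55. Mef2d, Mgp and Panx3, 3 of the 9 members, were above that 95th percentile in wild type. Col10a1 was at percentile 93.1 of those receptor genes and at percentile 58.1 of all genes, and Mef2c at percentiles 65.6 and 19. Of 15 chondrocyte markers, 10 were above the same level, and Col2a1, the main collagen of cartilage, was at percentile 98.9 of all genes. The other members, Col10a1 among them, lay below that level.

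Genes with a pattern most like that of Col10a1 were sought by the root mean square difference of centred log2 values over the 5 arrays. Olfr341, an olfactory receptor gene, was closest at 0.0295, followed by the chemokine gene Cxcl1 at 0.0325 and by Atp5mpl at 0.0351. Olfr341 was at 4.02 and 4.70 in knockout and at 3.78 to 4.05 in wild type, and Cxcl1 at 6.46 and 7.10 against 6.30 to 6.53. All 4 genes, Col10a1 included, were highest in knockout 5 and lowest in wild type 3.

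Because 3 members are transcription factors, the promoters of the members were read for the letters such factors bind. RefSeq's GRCm38.p6 table held 12 promoters for 7 members, each 300 bases from 250 before the transcript start to 50 after it. TGTGGT or TGCGGT, the core that Runx proteins bind, was searched on both strands and is in 22.4% of all 32851 promoters. It was found in 1 of the 12, the Runx3 promoter shown here, 2 times in tandem on the minus strand of the gene, beginning at -134 and -126 from the start. CTANNNNTAG, the core of the Mef2 site, is in 3.69% of all promoters and was in 0 of the 12. TATAAA, the TATA box, is in 13.6% of all promoters and was in 4 of the 12, at -32 in Col10a1 and on the minus strand of the gene in 2 promoters of Mef2c and in Slc1a3. The pair is shown because Col10a1 is the gene that marks the cell type and Runx3 the member whose promoter holds its own family's motif; capitals mark TATAAA in the first and the Runx core, read as ACCACA, in the second. The Col10a1 window is chr10:34389731-34390030 on the plus strand and the Runx3 window chr4:135120395-135120694 on the plus strand.
Col10a1: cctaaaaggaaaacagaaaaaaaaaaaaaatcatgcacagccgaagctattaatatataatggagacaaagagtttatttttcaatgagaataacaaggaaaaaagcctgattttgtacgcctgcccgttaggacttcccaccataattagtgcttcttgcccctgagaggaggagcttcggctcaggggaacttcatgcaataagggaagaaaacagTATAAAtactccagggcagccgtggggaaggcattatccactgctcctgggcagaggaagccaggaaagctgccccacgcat
Runx3: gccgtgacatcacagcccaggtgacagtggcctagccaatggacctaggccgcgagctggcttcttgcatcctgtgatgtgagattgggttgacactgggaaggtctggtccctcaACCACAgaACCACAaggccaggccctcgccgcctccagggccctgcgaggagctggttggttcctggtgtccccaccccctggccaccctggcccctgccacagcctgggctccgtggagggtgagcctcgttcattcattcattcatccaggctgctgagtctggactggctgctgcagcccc
A match of letters is a description and not a site in use. Col10a1, without the Runx core in its window, changed by 0.34, and Runx3, with 2 copies, by 0.031, neither beyond its error.

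Other genes of the path to hypertrophy were read from 3 lists, with a list of the members' closest relatives beside them. Among transcription factors and kinases, 20 of 22 were measured, 0 rose, 1 fell and 19 did not pass, with a median change of -0.056. The fall was that of Sox9, the factor that chondrocytes need for their identity, from 6.01, 6.02 and 6.01 in wild type to 5.56 and 5.63 in knockout (-0.42, SE 0.0291, limma's adjusted p = 0.0229). Both knockout mice were below all wild types, but the call was lost with the array run as a block (-0.42, adjusted p = 0.0603), after cyclic loess (-0.26, adjusted p = 0.116) and without wild type 3, 4 or 6 (adjusted p = 0.134 to 0.189). Cbfb, the partner subunit of Runx proteins, was at 4.91 and 5.13 in knockout and 5.45 to 5.67 in wild type (-0.51, adjusted p = 0.136). Fgfr3, a receptor that slows growth cartilage, was at 6.52 and 5.91 against 6.85 to 6.95 (-0.69, adjusted p = 0.224), and Cebpb, which represses collagen II genes, at 6.61 and 6.17 against 6.83 to 7.21 (-0.56, adjusted p = 0.308).

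In the loop of parathyroid hormone-related protein and Indian hedgehog, 8 of 11 genes were measured, 0 rose, 1 fell and 7 did not pass, with a median of 0.06. Gli1, a direct target and effector of hedgehog signalling, fell from 6.41, 6.46 and 6.41 to 5.85 and 5.83 (-0.58, SE 0.0254, adjusted p = 0.015). This call too was lost with run as a block (adjusted p = 0.0534), after cyclic loess (-0.39, adjusted p = 0.107) and without any 1 wild-type array (adjusted p = 0.106 to 0.179). Ihh, the ligand made by prehypertrophic cells, was at 6.57 on 4 arrays and at 6.27 in knockout 2 (-0.15, adjusted p = 0.399). Pth2r, the relative of Pth1r, was at 4.51 and 4.85 in knockout and 4.22 to 4.45 in wild type (0.37, adjusted p = 0.33), and Gli3, the hedgehog repressor, at 4.50 in both knockout mice and 4.11 to 4.36 in wild type (0.22, adjusted p = 0.38).

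Of the list of matrix, mineral and vessel genes of late hypertrophy, 20 of 22 were measured and 0 passed, with 6 higher, 13 lower and a median of -0.11. The list also holds Ucma (-0.63) and Matn3 (-0.54), which serve as general chondrocyte markers too. Its counts and median are therefore not of late hypertrophy alone. The list's median was -0.29 within run 1, 0 within run 2 and 0.009 after cyclic loess, where 10 were higher and 10 lower. Mmp13, the collagenase of late hypertrophic cells, was at 5.38 on 4 arrays and 5.15 in knockout 5 (-0.11, adjusted p = 0.399). Alpl, the phosphatase that frees phosphate for mineral, was at 5.57 and 5.72 in knockout and 5.89 to 5.90 in wild type (-0.25, adjusted p = 0.117). Vegfa, which draws vessels into hypertrophic cartilage, went apart between the knockout mice, at 7.19 and 6.13 against 6.16 to 6.26 (0.46, adjusted p = 0.425). Ucma, a secreted protein of the upper zones of growth cartilage, was at 4.69 and 5.10 against 5.52 in every wild type (-0.63, adjusted p = 0.131), and Mmp14 and Bmp2 stood at -0.19 (adjusted p = 0.147) and 0.087 (adjusted p = 0.215).

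Among the closest relatives of the members, 17 of 20 were measured, 0 rose, 1 fell and 16 did not pass, with a median of -0.23 that was -0.31 within run 1, 0 within run 2 and -0.023 after cyclic loess. The fall was that of Capg, an actin-capping relative of Scin, from 4.90 in each wild type to 4.38 and 4.52 (-0.45, SE 0.0484, adjusted p = 0.0402). It did not pass with run as a block (adjusted p = 0.0825), after cyclic loess (adjusted p = 0.0637) or without any 1 wild-type array (adjusted p = 0.193 to 0.231), and its wild-type signal was at percentile 85 of the olfactory and vomeronasal receptor genes. Col8a2, a short-chain collagen like Col10a1, was at 5.86 and 6.02 in knockout and 6.25 to 6.30 in wild type (-0.33, adjusted p = 0.0883), on the other side of 0 from Col10a1. Slc1a7 and Slc1a1, relatives of Slc1a3, stood at -0.62 (adjusted p = 0.0528) and -0.25 (adjusted p = 0.129), and in each of them the knockout values lay below the lowest wild type. The values of the genotypes did not overlap in 7 of these 17 relatives, beside 31.5% of all genes. Nor did they in 5 of 20, 3 of 8 and 7 of 20 genes of the 3 lists above. The members are not set against these counts, since ties between genotypes made separate values impossible in most of them.

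**Figure D4:**
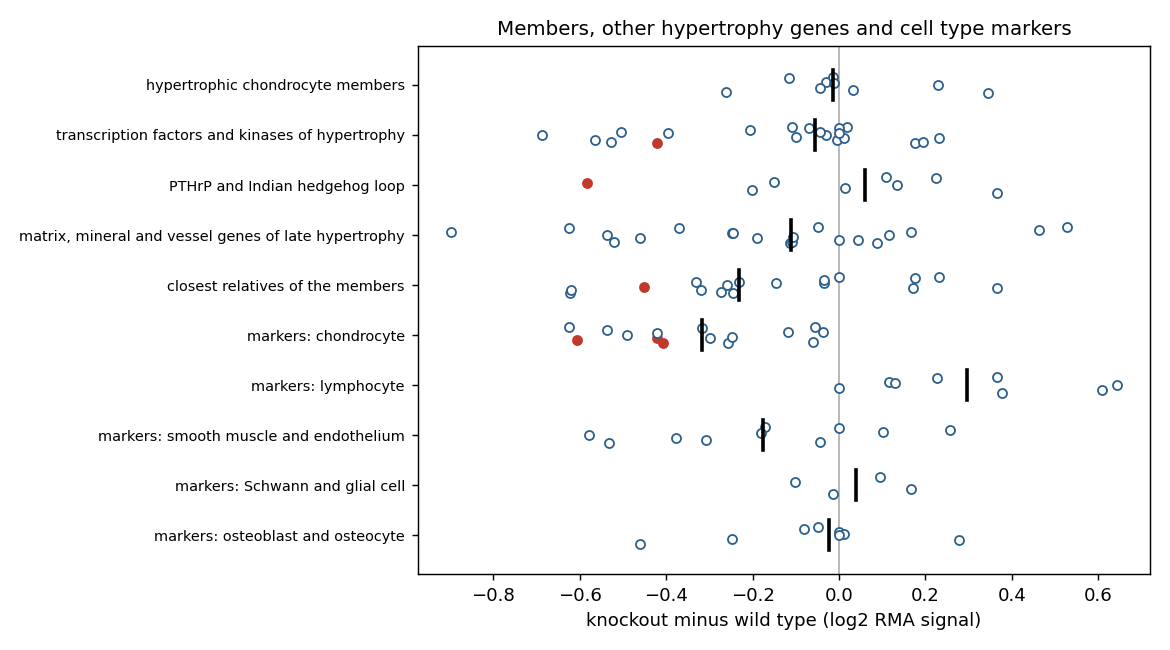
Knockout minus wild type (horizontal axis, log2 RMA signal) for each measured gene of the lists named on the vertical axis; filled red points passed limma's adjusted p of 0.05, open points did not, and black bars are list medians. The members centre on -0.013, and the chondrocyte markers, all 15 of them below 0 at this scaling (11 after cyclic loess), on -0.32.

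Beside the members, the general chondrocyte markers were lower in knockout for 15 of 15 genes, beside 51.1% of all genes. Sox9, Col9a3 and Comp fell while 12 did not pass, and 2.18% of all genes passed as lower. These markers are bright, at a median wild-type percentile of 86.1, and bright genes tended to lie below 0. In the fit to genes above the median level, 391 genes passed as lower and 55 as higher. Whether the markers fell more than other genes as bright was not tested. After cyclic loess 11 of the 15 were lower and 4 higher. None of the 3 calls was kept with run as a block (adjusted p = 0.0603 for Sox9, 0.0797 for Col9a3 and 0.0886 for Comp), after cyclic loess (0.116, 0.181 and 0.163) or without any 1 wild-type array, where Col9a3 had adjusted p = 0.106 to 0.205 and Comp 0.145 to 0.205. Their median change was -0.32, with -0.48 within run 1, -0.11 within run 2 and -0.15 after cyclic loess. Their mean log2 signal was 5.61 and 5.95 in knockout 2 and 5, against 6.10 to 6.11 in wild type, while that of the 9 members was 5.36 and 5.45 against 5.36 to 5.43. The difference between the lists was not tested. Of osteoblast and osteocyte markers, which share Panx3, Pth1r and Mef2c with hypertrophic cells, 0 of 8 passed, with a median of -0.024, and their mean log2 signal was 5.38 and 5.62 in knockout and 5.56 to 5.58 in wild type.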

How the data were processed

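Cartilage RNA of 5 mice was measured on 5 arrays, 2 knockout and 3 wild type, grouped by the titles in the labels. The deposited values are log2 signals that the authors made with Affymetrix Expression Console and RMA, per the submitters' processing notes (versions and build not given in the sources used here). Of its 35556 rows, 21789 had 1 gene symbol in the platform annotation, 1621 several and 12146 none; the brightest row of each symbol left 19938 genes, of which 19856 matched a gene identifier of GRCm38.p6. Rows with several symbols or none, and list genes without a row of their own such as Runx2 or Spp1, were not analysed here.

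The main comparison was limma's (version 3.58.1, R 4.3.3, lmFit and eBayes) over all genes at the log2 scale, two-sided, with Benjamini-Hochberg adjustment over all genes and a threshold of 0.05. The fit was tested on simulated data without tied values, run effects or scaling differences between arrays, so it was not checked under those conditions. Exact permutation tests used scipy 1.17.1. The number of arrays limits the precision. Alternatives covered the array run, between-array scaling, a filter on dim genes, the rows used, the variance model, array weights, the threshold and each array left out. The text names all members, up to 4 genes of lowest p in each list, 6 standing markers, the 3 genes most like Col10a1 and markers passing the test; Col2a1, Ddr1 and the olfactory receptor genes were chosen after their values were seen. The members and lists were chosen with earlier results of these data known.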

Additional observations from a re-analysis of the deposited data

How the results depend on the processing

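The count of members past the threshold was 0 under every alternative that kept all 5 arrays, at the looser adjusted p of 0.1, and without any 1 wild-type array; it ranged from 0 to 2 over the 5 arrays left out. Mef2c passed without knockout 2 (-0.087, adjusted p = 7.4e-06), and Pth1r (-0.059, adjusted p = 1.32e-05) and Slc1a3 (-0.52, adjusted p = 3.17e-07) without knockout 5. In these fits the lone knockout array was assumed to vary like wild type, where the 3 genes had identical values, and 37.7% and 50.2% of all genes passed. Signs turned as follows, with no call in any case. Panx3 was at 0.0044 with the run as a block. Under cyclic loess Pth1r was at 0.094, Mef2d at 0.20 and Panx3 at 0.12; under quantile normalisation these 3 were at 0.10, 0.16 and 0.12, with arrays centred on their median at 0.043, 0.059 and 0.061, and with arrays centred and scaled at 0.10, 0.25 and 0.14. Mef2c was at 0.029 with arrays centred. With 1 array left out, changes ranged from -0.003 to 0.69 for Col10a1, -0.24 to 0.013 for Scin and -0.065 to 0.048 for Panx3. The count of calls among transcription factors and kinases, 1, was 0 with the run as a block, under all 4 scalings and without any 1 wild-type array, and ranged from 0 to 8 with an array left out. In the hedgehog loop and among the relatives the count of 1 was 0 in those settings too, other than arrays centred on their median, and ranged from 0 to 6 and from 0 to 9. For late hypertrophy genes the count ranged from 0 to 15. Over all genes the run as a block, cyclic loess, quantile normalisation, array weights and each wild-type array left out gave 0 calls in limma, with 3829, 3919, 3761, 1917 and 2312 to 2458 genes at an unadjusted p under 0.05. The estimate of array weights stopped before it converged. The causes were not tested. The permutation test cannot pass the threshold and says nothing about stability. No paired analysis was possible because the groups share no replicate number.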
